A study of Mus musculus with 4 samples.

Results

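The tumour suppressor p53, encoded by Trp53 in the mouse, and 31 genes known as its partners or transcriptional targets were followed in a small cell lung cancer cell line exposed to an inhibitor of CDK7. The 32 genes were given as a list of symbols, were looked up in the deposited gene annotation and were joined by Ensembl identifier to the 54232 genes of the count table, where all 32 were found. Bulk RNA sequencing had been done on cultured RPP631 cells, a mouse lung tumour line. The control group had been kept for 48 h in DMSO, the solvent, and the treated group for 48 h in 100 nM of a compound that the labels call YKL. Each group held 2 libraries, both groups share the cell line and the time point, and there is no untreated or earlier sample. RPP is the usual name of a mouse model of small cell lung cancer in which Rb1, Trp53 and Rbl2 are deleted in the lung by Cre recombinase, but the labels give no genotype for RPP631. The line is 1 line, and the labels do not say whether its replicates were separate cultures.

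As background, p53 is a transcription factor that is held at a low level by the ubiquitin ligase Mdm2 and is stabilised after DNA damage and other stress. It then raises genes that stop the cell cycle, repair DNA, start apoptosis or adjust metabolism, and it also raises Mdm2, which closes a feedback loop. It binds sites made of a pair of decamers, each with a core of C, 2 bases that are A or T, and G. Several genes of the p53 programme can also be raised without p53, Cdkn1a and Gdf15 among them.

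The libraries held between 29817387 and 34189709 counts assigned to genes, and 16749 genes had enough counts to be tested. Levels are given in CPM, the count scaled to a common library size after TMM normalization, and in CPM per kilobase of exon where genes are compared with each other. The neuroendocrine markers Insm1, Chga, Syp, Calca, Ncam1 and Uchl1 and the lung lineage factor Nkx2-1 were above 160 CPM in each library. Of these, Nkx2-1 fell (log2 fold change -1.14 ± 0.18, adjusted p = 0.0189). Of 13 markers of leukocytes, fibroblasts, endothelium and lung epithelium, Cdh5 and Sftpa1 were at 0 in both DMSO libraries. The summed level of these 13 was 24.8 and 34.5 CPM in DMSO and 63.7 and 36.5 CPM in YKL, most of it Pdgfra and Foxj1. The leukocyte gene Ptprc rose from 0 and 2 counts in DMSO to 25 and 23 counts in YKL (adjusted p = 0.0392), and the part of these markers in the results was not tested. The DMSO libraries stood apart on the second principal component (scores 37.2 and -51.8), and the groups on the first. The chi-square per degree of freedom between libraries was 86.6 for the DMSO pair and 37.1 for the YKL pair, and mitochondrial transcripts took 1.01% to 1.14% of the counts in DMSO and 1.25% to 1.78% in YKL. Since nothing says that replicates were separate cultures, the p-values reflect only how far these samples spread, which may be technical.

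Exposure to YKL was accompanied by a rise of 2 of the listed genes, Tigar and Trp53inp1, and by no fall that passed the test. The other 29 genes tested, Mdm2, Ccng1 and Bax among them, were not called. Of the 32 genes, 31 were tested. With edgeR's quasi-likelihood test and a threshold of 0.05 on the Benjamini-Hochberg adjusted p, which 3.54% of all genes tested passed, 2 of these were higher in YKL, where 2.10% of all genes tested were higher, and 0 were lower, where 1.44% of all genes were. At an unadjusted p under 0.05, 5 were higher and 3 lower, and 21.2% of all genes tested passed that limit in either direction. The median log2 fold change, YKL over DMSO, was 0.15 for the 31 genes and -0.0001 for all genes tested, and 20 of the 31 values were above 0. Both YKL libraries lay above both DMSO libraries in 11 of the 31 genes, against 27.0% of all genes, and below both in 5, against 25.3%. Together these 16 genes are 51.6% of the 31, and 52.3% of all genes had groups that did not overlap. In 22 of the 31 genes the 95% interval of the log2 fold change ended below 1, which is a doubling, and this was so in 66.6% of all genes tested. Scaling centres the fold changes of all genes near 0, so that a change shared by most transcripts would not show.

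How many of the 32 genes were called moved with the setting, and so did the share of all genes called. With RLE scaling, upper quartile scaling and the stricter filter the same 2 genes were called, where 4.19%, 1.98% and 4.82% of all genes were. Tigar alone was called with scaling by total counts (1.01% of all genes) and without the robust prior (1.41%). Mdm4, Psrc1 and Sesn2 were called lower in addition without the filter (5.79% of all genes) and by DESeq2 (11.6%). A fit without 1 library leaves a group with 1 library, which is assumed to vary like the other group, so calls gained or lost in such fits also follow the spread of the pair that remains, which was larger in DMSO than in YKL. Without DMSO replicate 1 the calls were Eda2r, Tigar, Trp53inp1, Mdm4 and Psrc1, where 7.61% of all genes passed, and without DMSO replicate 2 they were Btg2, Ddb2, Tigar, Trp53inp1, Mdm4, Psrc1 and Sesn2, where 14.0% passed. A further setting, which called 8.28% of all genes, is given with the limits of the processing.

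**Figure D1:**
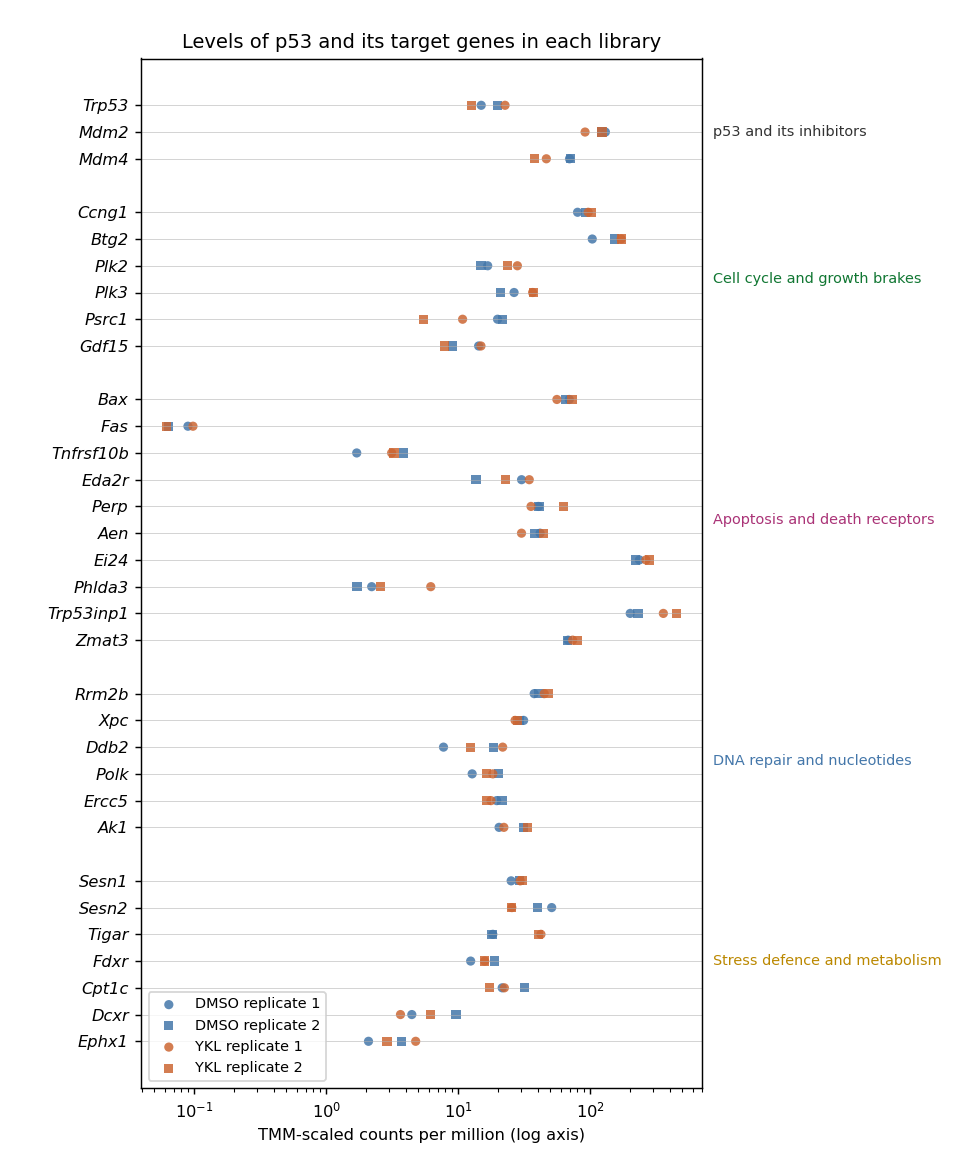
CPM of the 32 genes after TMM scaling, on a log axis, with 1 point for each library, blue for DMSO and orange for YKL, circles for replicate 1 and squares for replicate 2, ordered by role. The YKL points of Tigar and Trp53inp1 lie to the right of the DMSO points, those of Psrc1, Mdm4 and Sesn2 lie to the left, and the points of Trp53, Mdm2 and Bax are mixed.

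Trp53 itself (ENSMUSG00000059552, chromosome 11, 69580359 to 69591873, mm10, plus strand) was detected in every library at a modest level. Its level was 14.9 and 19.99 CPM in DMSO and 22.6 and 12.7 CPM in YKL, from 500, 630, 694 and 408 counts. The highest and the lowest of these values were both in YKL, so the groups overlapped. The log2 fold change was 0.02 ± 0.32 (standard error; 95% interval -0.71 to 0.75; adjusted p = 0.987). Its sign turned without DMSO replicate 1 (-0.18) and without YKL replicate 1 (-0.46). Per length, Trp53 stood at 4.34 CPM per kilobase over the 4 libraries, above 46.4% of all genes tested. Wrap53, which starts next to Trp53 on the other strand and encodes a telomerase and Cajal body protein, stood at 17.1 CPM per kilobase, and the exons of these neighbours share no base in the count table. Counts summed over a gene do not show which exons were read, so it cannot be told from them whether the Trp53 transcripts were of full length.

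Mdm2 and Mdm4 encode the main inhibitors of p53, and Mdm2 is also one of its most widely used target genes. Mdm2 (chromosome 10, 117688875 to 117710758) had 130 and 122 CPM in DMSO and 91.5 and 123 CPM in YKL. YKL replicate 1 was the lowest library and YKL replicate 2 lay between the DMSO libraries. The log2 fold change was -0.23 ± 0.20, with a 95% interval of -0.68 to 0.21 (adjusted p = 0.552). Per length Mdm2 was the most abundant of these 3 genes, at 23.0 CPM per kilobase, above 83.8% of all genes tested. Mdm4 (chromosome 1, 132959484 to 133030561), a relative of Mdm2 that blocks the activation domain of p53, had 69.8 and 71.4 CPM in DMSO and 46.6 and 38.0 CPM in YKL. Both YKL libraries were below both DMSO libraries, at a log2 fold change of -0.74 ± 0.19 that did not pass the threshold (adjusted p = 0.0668). It was called lower by the DESeq2 Wald test (adjusted p = 0.0106), without the filter (0.0118) and without DMSO replicate 1 (0.0411) or DMSO replicate 2 (0.0188).

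Tigar (ENSMUSG00000038028, chromosome 6, 127085116 to 127109557, mm10, minus strand) encodes a fructose bisphosphatase that slows glycolysis and feeds the pentose phosphate pathway. Its level was 18.3 and 18.0 CPM in DMSO and 42.4 and 40.6 CPM in YKL, from 612, 568, 1299 and 1309 counts. The replicates of each group lay close together and the groups were far apart. It rose 2.29-fold, at a log2 fold change of 1.19 ± 0.21 (95% interval 0.73 to 1.66; adjusted p = 0.0221). The antisense gene Platr31, which shares 122 exonic bases with Tigar, had at most 2 counts in any library. Trp53inp1 (ENSMUSG00000028211, chromosome 4, 11156431 to 11174379) encodes a nuclear protein that works with p53 in apoptosis and takes part in autophagy. Its level was 201 and 230 CPM in DMSO and 358 and 451 CPM in YKL, and its mean CPM over the 4 libraries was the highest of the 32 genes. Per length it stood at 47.9 CPM per kilobase, below Btg2 (54.8) and Ei24 (51.6). Trp53inp1 rose 1.88-fold, at a log2 fold change of 0.91 ± 0.19 (95% interval 0.47 to 1.34, adjusted p = 0.0389), and both YKL libraries were above both DMSO libraries. Both calls passed without either DMSO library and missed the threshold without either YKL library. Without YKL replicate 1 the adjusted p was 0.135 for Tigar and 0.0897 for Trp53inp1, and without YKL replicate 2 it was 0.12 and 0.282, with log2 fold changes of 1.17 and 1.22 for Tigar and of 1.07 and 0.73 for Trp53inp1. No gene of the list was called in either case, where 0.606% and 0.402% of all genes were. The call of Trp53inp1 also ended with scaling by total counts (adjusted p = 0.0552) and without the robust prior (0.0646).

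The promoter of Tigar is shown because Tigar is the called gene with a promoter window in the reference. The window runs from 250 bases before to 50 bases after the start annotated by RefSeq (GRCm38.p6, minus strand, chr6:127109503-127109802). Capitals mark the 20-base stretch most like a full p53 site and the CCAAT boxes on either strand.
Tigar promoter: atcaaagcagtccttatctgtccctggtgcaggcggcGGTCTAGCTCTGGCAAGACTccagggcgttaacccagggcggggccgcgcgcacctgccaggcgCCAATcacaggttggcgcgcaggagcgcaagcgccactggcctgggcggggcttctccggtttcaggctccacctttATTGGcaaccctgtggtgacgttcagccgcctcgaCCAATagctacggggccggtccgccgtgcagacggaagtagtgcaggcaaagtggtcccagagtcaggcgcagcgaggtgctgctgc

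The best match to a p53 full site, which is 2 half-site decamers with no spacer, was then read in the windows of the 25 listed genes that have one. The stretches below are a choice from those with at least 17 matches, and capitals mark the 4-base cores. Mdm4, Bax, Sesn1 and Polk also matched 17 positions and are not shown. Cdkn1a is not among the 32 genes and is shown as the best known p53 target.
Cdkn1a: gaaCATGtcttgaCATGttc
Ccng1: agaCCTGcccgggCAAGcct
Tigar: ggtCTAGctctggCAAGact
Aen: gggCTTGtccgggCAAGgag
Trp53: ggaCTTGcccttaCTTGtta
The stretch of Cdkn1a (chr17:29090928-29090947, plus strand) matched 19 of 20 positions and began 51 bases before the upstream start. That of Ccng1 (chr11:40755462-40755481, minus strand) also matched 19. The stretches of Tigar (chr6:127109746-127109765, minus strand), Aen (chr7:78895937-78895956, plus strand) and Trp53 (chr11:69580284-69580303, plus strand) matched 17 each. A match of at least 17 was found in 9 of the 34 windows of the listed genes, and in 6.29% of all 32851 windows. A match of at least 19 was found in 0.0883% of all windows. An exact core was read as CATG or its variants with other middle bases, which are CAAG and the reverse strand's CTTG as well as the palindrome CTAG. A pair of exact cores starting 10 bases apart, a search that gives the same result on both strands, was present in Tigar, Aen, Trp53 and Plk2, in 5 of the 34 windows, and in 7.22% of all windows. Of the 8 genes with a match of at least 17, which are Mdm4, Tigar, Bax, Aen, Sesn1, Ccng1, Trp53 and Polk, Tigar was called and the others were not. A match describes the letters of the window and shows no binding. No windows were given for Rrm2b, Ddb2, Tnfrsf10b, Perp, Trp53inp1, Xpc and Zmat3.

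**Figure D2:**
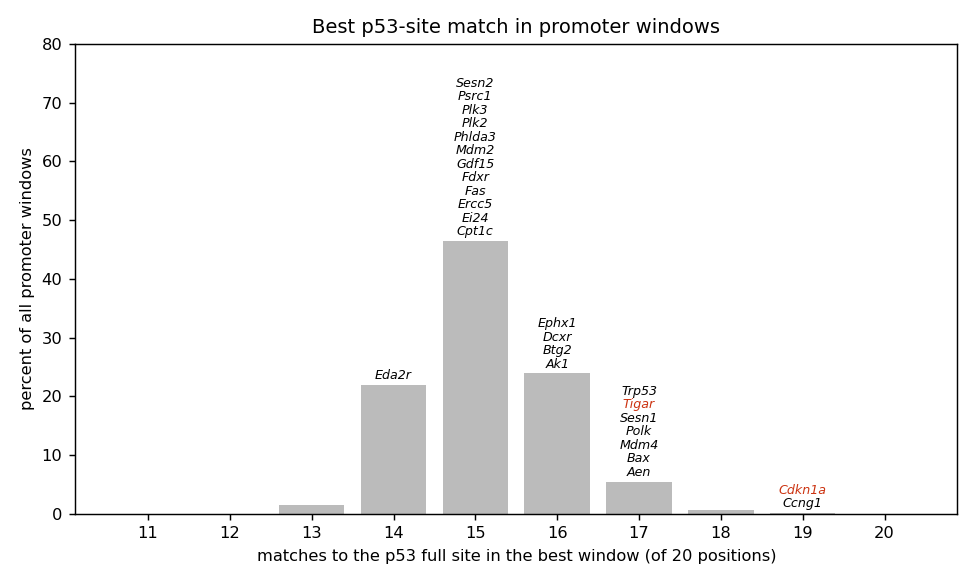
Grey bars give the percent of all 32851 promoter windows by the number of matches, of 20 positions, in their best stretch for a p53 full site. The names are the listed genes and Cdkn1a stacked over the bar of their own best match, Tigar and Cdkn1a in red, and Ccng1 and Cdkn1a stand at 19 matches.

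Among the genes grouped under growth and the cell cycle, 0 of 6 were called in either direction, where 3.54% of all genes tested were. Per length, Btg2 and Ccng1 were the most abundant. Btg2, an antiproliferative gene of the early response to p53, had 104 and 153 CPM in DMSO and 172 and 173 CPM in YKL. The YKL libraries agreed closely and the DMSO libraries did not (log2 fold change 0.43 ± 0.21, adjusted p = 0.293). Without DMSO replicate 2 the value was 0.70 and was called (adjusted p = 0.0354), and without DMSO replicate 1 it was 0.17 (adjusted p = 0.686). Ccng1, which encodes cyclin G1 and is one of the most regular p53 targets, had 80.3 and 92.7 CPM in DMSO and 96.7 and 103 CPM in YKL. The groups did not overlap, but the difference was small, with a 95% interval of -0.20 to 0.61 for the log2 fold change (adjusted p = 0.568).

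The stress-induced polo-like kinase genes Plk2 and Plk3 moved alike without passing the threshold. Plk2 had 16.7 and 14.9 CPM in DMSO and 28.1 and 23.7 CPM in YKL (log2 fold change 0.71 ± 0.24, adjusted p = 0.131). Plk3 had 26.5 and 20.8 CPM in DMSO and 36.6 and 37.0 CPM in YKL (0.64 ± 0.22, adjusted p = 0.135). In both genes the YKL libraries were above the DMSO libraries. Gdf15, a secreted stress cytokine that p53 and ATF4 can both raise, had 14.3 and 9.01 CPM in DMSO and 14.9 and 7.85 CPM in YKL, with overlapping groups (adjusted p = 0.975).

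Psrc1, which encodes a microtubule protein of the mitotic spindle, had the lowest log2 fold change of the 31 genes. Its level was 19.9 and 21.7 CPM in DMSO and 10.8 and 5.43 CPM in YKL. Both YKL libraries were below both DMSO libraries, and YKL replicate 2 was the lowest. The log2 fold change was -1.36 ± 0.35 (adjusted p = 0.0681), and it was called lower by DESeq2 (adjusted p = 0.00409), without the filter (0.000739) and without DMSO replicate 1 (0.0244) or DMSO replicate 2 (0.00117). Its promoter is shown because it holds the CCAAT box and the cell cycle element typical of late cell cycle genes, in capitals (GRCm38.p6, plus strand, chr3:108383554-108383853).
Psrc1 promoter: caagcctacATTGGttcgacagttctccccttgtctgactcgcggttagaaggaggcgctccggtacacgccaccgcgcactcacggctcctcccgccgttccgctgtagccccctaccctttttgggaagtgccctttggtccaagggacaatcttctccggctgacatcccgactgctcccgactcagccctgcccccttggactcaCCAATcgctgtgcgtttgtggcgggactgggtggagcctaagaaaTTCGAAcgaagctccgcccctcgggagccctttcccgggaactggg
The element TTCGAA begins 4 bases after the start base. TTTGAA or TTCGAA, on either strand, was found in 19.2% of all windows and in 8 of the 34 windows of the listed genes, and CCAAT, on either strand, in 37.4% and in 19. The windows of Aen, Ercc5 and Fdxr also held both motifs. Both were also found over the windows of Gdf15, though neither in its window with the best p53 match. The log2 fold changes of Aen, Ercc5, Fdxr and Gdf15 were -0.10, -0.27, 0.02 and -0.04, and none was called. The part of these motifs in the level of Psrc1 was not tested.

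In the group of apoptosis and death receptor genes, Trp53inp1 was the only call among 9 tested, where 3.54% of all genes were called. Ei24, which encodes a protein of the endoplasmic reticulum, was the most abundant per length and had 236 and 222 CPM in DMSO and 265 and 282 CPM in YKL. The groups did not overlap, at a log2 fold change of 0.25 ± 0.17 (adjusted p = 0.445). Phlda3, which encodes an inhibitor of AKT, was scarce, at 2.21 and 1.71 CPM in DMSO and 6.20 and 2.58 CPM in YKL. YKL replicate 1 stood apart from the other libraries, and the log2 fold change of 1.16 ± 0.52 was not called (adjusted p = 0.234). It was 0.39 without YKL replicate 1 and 1.65 without YKL replicate 2, not called in either case. Bax, the pore-forming protein of mitochondrial apoptosis, had 69.4 and 65.1 CPM in DMSO and 56.0 and 72.8 CPM in YKL, and its 95% interval of -0.51 to 0.38 left out a doubling. Zmat3, an RNA-binding zinc finger protein, had 68.1 and 67.2 CPM in DMSO and 73.7 and 80.4 CPM in YKL (log2 fold change 0.19 ± 0.18, adjusted p = 0.603).

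The death receptor genes gave little signal. Fas had at most 3 counts in any library, too few to be tested. Tnfrsf10b, which encodes the receptor for TRAIL, stood at 1.70 and 3.87 CPM in DMSO and 3.13 and 3.26 CPM in YKL, with overlapping groups (adjusted p = 0.87). Eda2r, the receptor for ectodysplasin A2, had 30.2 and 13.6 CPM in DMSO and 34.6 and 22.8 CPM in YKL, so the spread within DMSO was larger than the difference between the groups (log2 fold change 0.39 ± 0.40). Without DMSO replicate 1 the value was 1.07 and was called (adjusted p = 0.0301), and without DMSO replicate 2 it was -0.11. Perp, a desmosomal membrane protein, and Aen, a nuclease of apoptotic cells, had log2 fold changes of 0.27 ± 0.27 and -0.10 ± 0.23, with YKL replicate 1 the lowest and YKL replicate 2 the highest of the 4 libraries in both.

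None of the 6 genes for DNA repair and nucleotide supply was called at the adjusted threshold, which 3.54% of all genes tested passed. None had an unadjusted p under 0.05 in edgeR's test, where 21.2% of all genes did. Their log2 fold changes ran from -0.27 for Ercc5, the nuclease XPG of nucleotide excision repair, to 0.39 for Ddb2. Ddb2, a damage sensor of the same pathway, had 7.74 and 18.4 CPM in DMSO and 21.7 and 12.5 CPM in YKL. The spread within each group was larger than the difference, and the value was 1.11 without DMSO replicate 2 (adjusted p = 0.0163) and -0.11 without DMSO replicate 1. Ddb2 shares 652 exonic bases with Acp2 on the other strand, 23.8% of its length, and Acp2 had 828 to 1334 counts, so reads of this stretch are uncertain. Ak1, an adenylate kinase and the most abundant of the 6 per length, had 20.4 and 31.2 CPM in DMSO and 22.2 and 33.7 CPM in YKL. In both groups replicate 2 was the higher. Rrm2b, the p53-inducible subunit of ribonucleotide reductase, had 37.7 and 41.0 CPM in DMSO and 44.9 and 48.1 CPM in YKL, with a 95% interval of -0.18 to 0.67. Xpc, another gene of nucleotide excision repair, and Polk, a polymerase that copies past damage, had log2 fold changes of -0.13 ± 0.21 and 0.07 ± 0.29.

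The genes for stress defence and metabolism went in both directions, with Tigar as the only call among 7, where 3.54% of all genes tested were called. The sestrins restrain mTORC1 signalling and limit oxidative damage. Sesn1, which is mainly a p53 target, had 25.2 and 29.3 CPM in DMSO and 29.5 and 30.8 CPM in YKL (log2 fold change 0.15 ± 0.21, adjusted p = 0.749). Sesn2, which ATF4 also raises, had 51.1 and 40.01 CPM in DMSO and 25.5 and 25.4 CPM in YKL. Both YKL libraries were below both DMSO libraries, and the log2 fold change of -0.84 ± 0.21 missed the threshold (adjusted p = 0.0625). It was called lower by DESeq2 (adjusted p = 0.00843), without the filter (0.00861) and without DMSO replicate 2 (0.0012). The difference between the log2 fold changes of the sestrins was not tested. Fdxr, the ferredoxin reductase of mitochondria, had 12.4 and 18.9 CPM in DMSO and 15.9 and 15.9 CPM in YKL. Cpt1c, Dcxr and Ephx1, a brain-type carnitine palmitoyltransferase, a sugar reductase and an epoxide hydrolase, had log2 fold changes of -0.42 ± 0.27, -0.52 ± 0.47 and 0.40 ± 0.48 and overlapping groups.

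**Figure D3:**
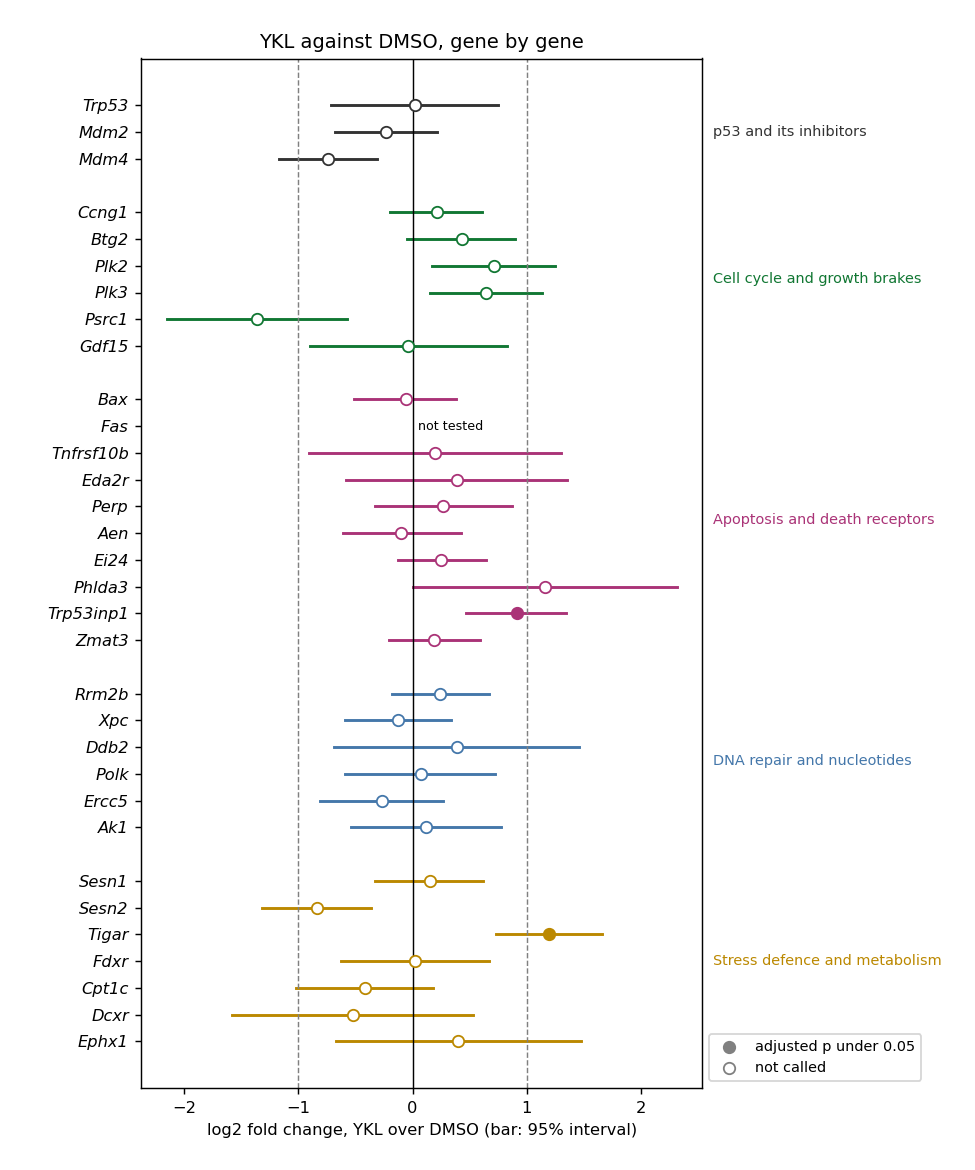
Log2 fold change of each gene, YKL over DMSO, with its 95% interval as a bar, a filled point where the adjusted p was under 0.05 and dashed lines at a doubling and a halving. The filled points are Tigar at 1.19 and Trp53inp1 at 0.91, Fas was not tested, and Psrc1 has the lowest value at -1.36.

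Beyond the 32 genes, 30 further genes that are known as p53 targets were read from the same test, 28 of which had enough counts. Of these, 5 were higher in YKL, where 2.10% of all genes tested were, and 1 was lower, where 1.44% were. The median log2 fold change was 0.39. The higher genes were Cdkn1a, Pmaip1, Kitl, Sfn and Epha2. Cdkn1a, the cyclin-dependent kinase inhibitor p21, had 318 and 500 CPM in DMSO and 1045 and 1097 CPM in YKL (log2 fold change 1.39 ± 0.24). Pmaip1, the BH3-only protein Noxa, had 13.3 and 22.1 CPM in DMSO and 50.4 and 46.0 CPM in YKL (1.45 ± 0.27). Both genes can also be raised without p53, as background. Kitl, the ligand of the receptor Kit, had 102 and 74.9 CPM in DMSO and 251 and 273 CPM in YKL (1.57 ± 0.20, adjusted p = 0.0102). Sfn, which encodes the 14-3-3 protein sigma, had 9.63 and 13.5 CPM in DMSO and 25.9 and 42.0 CPM in YKL (1.55 ± 0.30). Epha2, a receptor tyrosine kinase, had 13.03 and 10.8 CPM in DMSO and 32.7 and 27.9 CPM in YKL (1.35 ± 0.25). The adjusted p of these 5 genes ran from 0.0102 to 0.0321. In each, both YKL libraries were above both DMSO libraries, as in 27.0% of all genes tested. These genes were picked by their calls in the same libraries, so the separation adds nothing to the calls. The lower gene was Ckap2, a spindle protein, with 208 and 163 CPM in DMSO and 104 and 86.6 CPM in YKL (-0.96 ± 0.20, adjusted p = 0.0363). Trp53cor1, the long noncoding RNA known as lincRNA-p21, stood at 2.39 and 2.51 CPM in DMSO and 0.849 and 0.372 CPM in YKL and was not called (log2 fold change -2.0 ± 0.56, adjusted p = 0.0839). Bbc3, Apaf1 and Ppm1d were not called, at 0.34 ± 0.21, 0.03 ± 0.18 and 0.82 ± 0.22. The calls of Cdkn1a and Pmaip1 ended with scaling by total counts (adjusted p = 0.0506 and 0.0595), without YKL replicate 1 (0.0587 and 0.107) and without YKL replicate 2 (0.0887 and 0.091), with log2 fold changes from 1.35 to 1.51, and that of Pmaip1 also ended without the robust prior. The calls in this list numbered 10 by DESeq2 (11.6% of all genes) and 11 without the filter (5.79%). They numbered 3 without the robust prior (1.41%) and 1 with scaling by total counts (1.01%). The number fell when either YKL library was left out and rose without DMSO replicate 2, as it did for all genes.

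Late cell cycle genes that p53 is known to lower by way of p21 and the DREAM complex were read as well. Of 15 such genes, 9 were lower, where 1.44% of all genes tested were, 0 were higher, where 2.10% were, and 6 were not called. The median log2 fold change was -1.03. Ccnb2, a mitotic cyclin, had 199 and 164 CPM in DMSO and 70.9 and 54.7 CPM in YKL (log2 fold change -1.53 ± 0.21, adjusted p = 0.0105), and Cdc20, the activator of the anaphase-promoting complex, had 288 and 197 CPM in DMSO and 75.2 and 78.4 CPM in YKL (-1.66 ± 0.22, adjusted p = 0.0102). The other called genes were Ccnb1, Cdc25c, Plk1, Birc5, Bub1, Aurkb and Prc1, with log2 fold changes from -1.58 to -0.96, whereas Cdk1 (-0.07 ± 0.18) and Ccna2 (-0.18 ± 0.21) were not called. The calls numbered 12 by DESeq2 (11.6% of all genes) and 6 with scaling by total counts (1.01%). The number fell when either YKL library was left out, as it did for all genes. Psrc1 had a log2 fold change of the same sign as this list.

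Of 25 regulators and relatives of p53, 24 were tested. By edgeR's test with the settings used throughout, 0 were called, where 3.54% of all genes tested were. An unadjusted p under 0.05 was found for 9, of which 3 were higher and 6 lower, and for 21.2% of all genes. Of the 24 log2 fold changes, 16 were below 0. The calls numbered 1 with RLE scaling (4.19% of all genes) and with the stricter filter (4.82%), 4 without the filter (5.79%) and 5 by DESeq2 (11.6%). Without DMSO replicate 1 or DMSO replicate 2, more were called than with the settings used throughout, as was so for all genes. Trp73, which encodes the p53 relative p73, had 62.1 and 68.6 CPM in DMSO and 100.4 and 112 CPM in YKL (log2 fold change 0.70 ± 0.18, adjusted p = 0.0668). The third member of the family, Trp63, had at most 2 counts in any library. Cdkn2a, whose ARF product blocks Mdm2, had 142 and 135 CPM in DMSO and 215 and 252 CPM in YKL (0.75 ± 0.18, adjusted p = 0.0541) and stood above 99.0% of all genes tested per length. Counts summed over Cdkn2a do not show how much of this level was the ARF transcript. Atm, the kinase that signals DNA breaks to p53, had 66.9 and 68.0 CPM in DMSO and 114 and 107 CPM in YKL (0.71 ± 0.18, adjusted p = 0.0586). In these 3 genes the groups did not overlap, as in 52.3% of all genes tested. Of the 24 genes, both YKL libraries lay above both DMSO libraries in 4, against 27.0% of all genes, and below both in 11, against 25.3%. Among those below were Chek1 (-0.52 ± 0.20, adjusted p = 0.178) and Rbl1 (-0.65 ± 0.24, adjusted p = 0.164), neither of them called. Kat5, an acetyltransferase of p53, had a log2 fold change of -0.93 ± 0.23 (adjusted p = 0.0557), but shares 423 exonic bases with Rnaseh2c on the other strand. Of the genes deleted in RPP mice besides Trp53, Rb1 had 26.5 and 33.3 CPM in DMSO and 41.6 and 26.5 CPM in YKL. Rbl2 stood at 3.68 and 2.32 CPM in DMSO and 5.71 and 4.78 CPM in YKL, and neither gene was called. Rb1 shares 488 exonic bases with Rcbtb2 (1867 to 2877 counts) and 408 with Lpar6, both on the other strand. Rbl2, with 73 to 175 counts, shares 693 with Aktip (1225 to 1904 counts) and 892 with Gm45464, also on the other strand. Reads of these stretches are uncertain, and whether Rb1 or Rbl2 was intact was not tested.

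Targets of ATF4, the factor of the integrated stress response, were read because Sesn2, Gdf15 and Tnfrsf10b are targets of both pathways. Of 16 such genes, 5 were lower, where 1.44% of all genes tested were, and 0 were higher, where 2.10% were. Their median log2 fold change was -0.79, and the 13 that are not among the 32 genes had a median of -0.81. Asns, the asparagine synthetase gene, had 415 and 359 CPM in DMSO and 164 and 199 CPM in YKL (-1.09 ± 0.19, adjusted p = 0.0223). The other called genes were Trib3, Chac1, Phgdh and Slc7a11. Sesn2 had a value close to the median of this list and Gdf15 and Tnfrsf10b did not. The calls numbered 9 by DESeq2 (11.6% of all genes) and 3 with scaling by total counts (1.01%). The number fell when either YKL library was left out and rose without DMSO replicate 2, as it did for all genes.

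**Figure D4:**
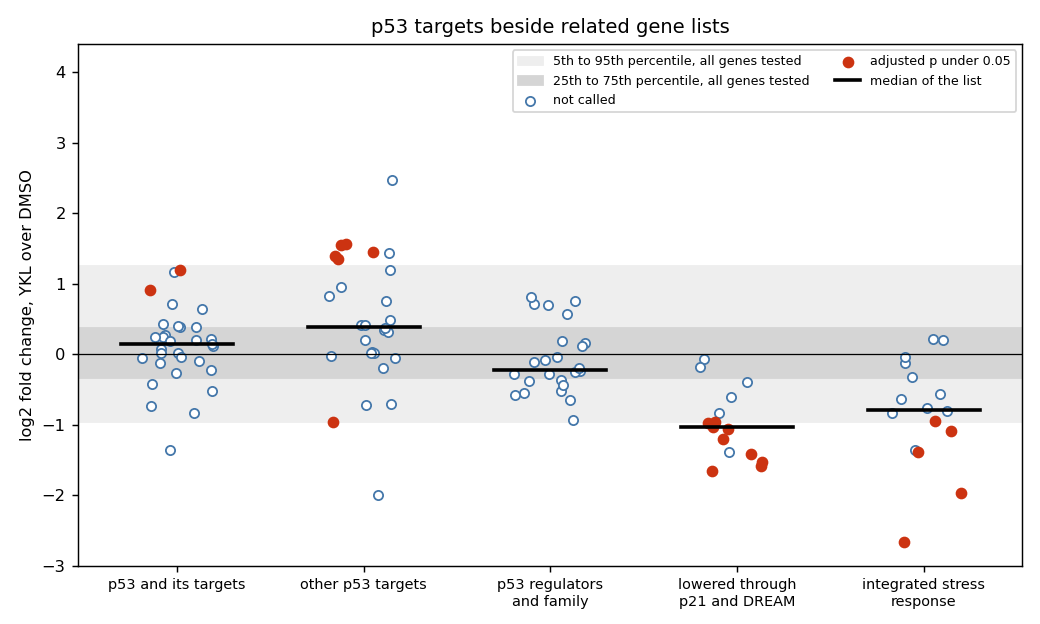
Log2 fold changes, YKL over DMSO, of the tested genes of the p53 list and of the related lists, with red points at an adjusted p under 0.05, black bars at the median of each list and grey bands for all genes tested. The medians are 0.15 for p53 and its targets, 0.39 for the other p53 targets, -0.22 for the regulators, -1.03 for the genes lowered through p21 and DREAM and -0.79 for the integrated stress response.

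In the authors' deposited table of their own DESeq2 comparison, 31 of the 32 genes were listed. At an adjusted p under 0.05 in the authors' deposited table, 5 were higher and 3 lower. Of all 15922 genes kept from it, 27.8% passed in either direction and 13.9% in each. The authors' deposited table gave log2 fold changes of 1.12 for Tigar, 0.84 for Trp53inp1, 0.82 for Phlda3, 0.64 for Plk2 and 0.59 for Plk3 among the higher genes. It gave -1.26 for Psrc1, -0.80 for Sesn2 and -0.70 for Mdm4 among the lower ones. In the authors' deposited table Mdm2 (-0.25), Ccng1 (0.18) and Bax (-0.09) did not pass, and Trp53 stood at -0.01 with an adjusted p of 0.976.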

How the data were processed

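Per the submitters' processing notes, STAR 2.5.2b, featureCounts and DESeq2 had been used with the mm10 build; the strand setting and the annotation release are not given in the sources used here. The authors deposited raw counts per gene and library, which were used as deposited. Their table of a DESeq2 comparison, per the file headers, holds a normalized mean signal, log2 fold changes, a test score, p-values and adjusted p-values for 15936 genes, of which 14 entries with an ambiguous name were dropped.

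Counts were tested with edgeR 4.0.16 in R 4.3.3: filterByExpr (minimum count 10, minimum total 15), TMM scaling and the robust quasi-likelihood test of YKL against DMSO over all genes, with 2 residual degrees of freedom and Benjamini-Hochberg adjustment. Standard errors are the absolute log2 fold change over the square root of F, and 95% intervals use the t quantile of the test's degrees of freedom, unadjusted. The procedure was tested on simulated data. Exonic lengths, positions and overlaps come from the count table, and promoter windows from RefSeq (GRCm38.p6), matched by symbol for 25 of the 32 genes. The scoring over 20 positions was chosen after the windows were read. Genes given in full were Trp53, Mdm2, those with an unadjusted p under 0.05, and the 2 most abundant per length in each role, and others were added after their values were seen. The 32 genes and all lists were chosen with earlier results of these data known. Alternatives changed the scaling (RLE, upper quartile or total counts), the filter (none, or 5 CPM in 2 libraries), the prior (not robust), the test (DESeq2 1.42.0), the design (a block for replicate number) and the libraries (each left out in turn). Depths ran from 29817387 to 34189709 counts, and the common biological coefficient of variation was 25.0%.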

Additional observations from a re-analysis of the deposited data

How the results depend on the processing

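The counts of calls depend on the processing and on single libraries. For all genes, 593 in the fit described, they were 169 with total count scaling, 331 with upper quartile scaling, 1740 without the filter, 236 without the robust prior and 1599 by DESeq2, and 71 to 2453 with 1 library left out. For p53 and its targets, 2 in that fit, they were 1 with total count scaling and without the robust prior, 5 without the filter and by DESeq2, and 0 to 7 with 1 library left out: 5 without DMSO replicate 1, 7 without DMSO replicate 2 and 0 without either YKL library. With the replicate number as a block, 1387 genes and 5 of the p53 list were called, the added ones being Mdm4, Psrc1 and Sesn2; the labels do not say that a number marks a shared culture or day, and with 2 pairs the correlation of same-numbered deviations (0.152) does not show that the numbers pair the libraries. Each scaling moved the median of all genes by less than 0.1 on the log2 scale. No called gene of the list turned sign in any of the 12 alternatives. Uncalled values near 0 did: Trp53 was -0.01 without the filter and -0.03 with the block, and Fdxr was -0.00335 without the filter. With 1 library left out the log2 fold changes ran from -0.46 to 0.37 for Trp53, -0.57 to 0.35 for Gdf15, -0.27 to 0.12 for Bax, -0.27 to 0.87 for Tnfrsf10b, -0.11 to 1.07 for Eda2r, -0.20 to 0.62 for Perp, -0.40 to 0.15 for Aen, -0.11 to 1.11 for Ddb2, -0.22 to 0.41 for Polk, -0.22 to 0.42 for Ak1, -0.25 to 0.32 for Fdxr, -0.97 to 0.11 for Dcxr and -0.00202 to 0.83 for Ephx1. The cause of these shifts was not tested. Depth does not limit the common genes, but Fas could not be tested and Phlda3, Tnfrsf10b and Ephx1 had fewer than 200 counts in each library.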

Other observations

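Within the DMSO group, 4 of the 31 tested genes of the p53 list differed by more than 2-fold between the libraries, namely Tnfrsf10b, Eda2r, Ddb2 and Dcxr, and within the YKL group 1 did, Phlda3. The median absolute log2 ratio between the libraries of a group was 0.21 in DMSO and 0.29 in YKL for these 31 genes, against 0.32 and 0.25 for all genes tested. The genes of the list were thus less spread than other genes in DMSO by this median and more spread in YKL, and the difference was not tested.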
